A study of Mus musculus with 50 samples.

Results

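The 9 genes described here are C1qa, C1qb, C1qc, C3, C4b, C3ar1, C5ar1, Cfb and Cfp. They were chosen by symbol as components and receptors of the complement system, out of the 53700 genes counted in microglia, the resident macrophages of the brain. The cells came from the hippocampus of 50 male C57BL/6J mice, and the poly-A RNA of each mouse gave 1 library. In the early-life stress groups (ELS), dams and pups had limited bedding and nesting material from postnatal day (P) 2 to P9, and control mice (CTR) were left undisturbed. The untreated P9 groups held 12 P9-CTR and 13 P9-ELS mice. At P200 the mice received an i.p. injection 3 h before sacrifice, either of the vehicle PBS (7 CTR-PBS and 6 ELS-PBS mice) or of 1 mg/kg LPS, a bacterial cell wall component (7 CTR-LPS and 5 ELS-LPS mice). The sort kept single live CD45int CD11b+ cells, a gate that does not separate microglia from all other macrophages. Myelin was removed with Percoll from adult brains and not at P9. Age therefore cannot be told apart from this step or from the injection itself. The number that opens a mouse label was read as the nest, separately at each age because number 17 stands for CTR mice at P9 and for ELS mice at P200. Read in this way, every nest belonged to 1 condition.

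Complement is a cascade of secreted proteins that tags microbes, debris and, in the developing brain, synapses. C1q starts the classical pathway, C4 and C2 then build an enzyme that cleaves C3, and factor B (Cfb) and properdin (Cfp) build and hold together the enzyme of the alternative pathway. The released fragments C3a and C5a act on the receptors C3ar1 and C5ar1. In the healthy brain microglia are the main source of C1q, whereas C3 and C4 are also made by astrocytes.

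All 9 genes lie on the minus strand of the GRCm39 assembly. C1qa (chr4:136623223-136626161), C1qc (chr4:136616466-136620376) and C1qb (chr4:136606009-136613511) are neighbours with 3 exons each, and 2846 and 2954 bases separate them. C4b (chr17:34947354-34962912, 41 exons) and Cfb (chr17:35074852-35081559, 18 exons) lie 111939 bases apart in the major histocompatibility region, and C3 (chr17:57510964-57535155, 41 exons) lies elsewhere on the same chromosome. The receptor genes C3ar1 (chr6:122823393-122833122) and C5ar1 (chr7:15980668-15993465) have 2 exons each, and Cfp (chrX:20791688-20797794) has 9. Counting could not resolve all of them equally well. Of the stretches of 50 bases in the C4b transcript, 34.81% also occur in its neighbouring copy C4a. Of the exon bases of Cfb, 65.67% overlap the read-through gene Gm20547 on the same strand, which had a count of 0 in 50 of 50 mice, and 49.82% overlap Nelfe on the opposite strand. Counts of C4b and Cfb are therefore uncertain, and for the other 7 genes at most 0.04% of such stretches occur elsewhere in the transcripts.

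The sequences before the transcription start are shown for the C1q subunits, C3 and both receptors, because these genes lie close together or share a cascade and yet differed in level and in response. Each line holds 250 bases (174 for C5ar1, where an exon of another of its transcripts begins further upstream), 5′ to 3′ on the gene's strand, and ends at the base before the canonical start. The windows are chr4:136626162-136626411 (C1qa), chr4:136613512-136613761 (C1qb), chr4:136620377-136620626 (C1qc), chr17:57535156-57535405 (C3), chr6:122833123-122833372 (C3ar1) and chr7:15993264-15993437 (C5ar1). Capitals mark matches to 6 motifs searched on both strands, namely NF-kB (GGGANNTTC), ISRE (GAAANNGAA), GAS (TTCNNNGAA), C/EBP (TTGCNNAA), AP-1 (TGANTCA) and PU.1 (GAGGAAG).
C1qa: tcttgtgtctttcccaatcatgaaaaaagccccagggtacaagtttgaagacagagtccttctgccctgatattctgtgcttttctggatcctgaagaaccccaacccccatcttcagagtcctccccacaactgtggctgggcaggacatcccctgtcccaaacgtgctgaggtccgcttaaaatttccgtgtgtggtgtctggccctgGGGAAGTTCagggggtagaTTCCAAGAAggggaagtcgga
C1qb: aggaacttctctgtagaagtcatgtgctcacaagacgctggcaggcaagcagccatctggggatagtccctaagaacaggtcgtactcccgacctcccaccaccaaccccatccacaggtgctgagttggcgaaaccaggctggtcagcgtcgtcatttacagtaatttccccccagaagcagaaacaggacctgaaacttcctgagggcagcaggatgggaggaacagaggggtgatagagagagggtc
C1qc: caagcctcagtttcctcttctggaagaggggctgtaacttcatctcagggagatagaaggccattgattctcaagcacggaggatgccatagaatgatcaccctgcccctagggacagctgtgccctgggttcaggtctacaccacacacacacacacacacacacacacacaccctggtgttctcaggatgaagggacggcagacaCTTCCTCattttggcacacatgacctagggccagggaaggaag
C3: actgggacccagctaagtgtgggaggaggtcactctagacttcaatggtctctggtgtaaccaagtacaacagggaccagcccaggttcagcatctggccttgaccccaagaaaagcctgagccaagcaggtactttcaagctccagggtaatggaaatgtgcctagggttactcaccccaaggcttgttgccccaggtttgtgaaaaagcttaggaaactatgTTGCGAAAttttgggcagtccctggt
C3ar1: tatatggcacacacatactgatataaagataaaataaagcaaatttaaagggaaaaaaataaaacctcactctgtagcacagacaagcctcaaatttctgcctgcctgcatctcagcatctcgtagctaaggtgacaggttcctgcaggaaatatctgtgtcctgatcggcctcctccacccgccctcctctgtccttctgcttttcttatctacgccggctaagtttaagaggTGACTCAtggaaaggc
C5ar1: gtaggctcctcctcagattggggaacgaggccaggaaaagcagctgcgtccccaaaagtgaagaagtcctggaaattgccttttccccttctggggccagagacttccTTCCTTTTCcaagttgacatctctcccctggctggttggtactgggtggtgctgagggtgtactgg

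The C1qa window held the NF-kB letters at -40 to -32 and the GAS letters at -21 to -13 from the start, and the C1qb window held none of the motifs. The PU.1 letters were found in C1qc (-43 to -37, other strand), those of C/EBP in C3 (-26 to -19), those of AP-1 in C3ar1 (-16 to -10) and those of ISRE in C5ar1 (-66 to -58, other strand). Of the remaining windows, C4b held ISRE and Cfp held none. Cfb held NF-kB at -65 to -57 on the other strand, outside the 18 bases next to its start that are free of annotated exons. Among 21770 windows of this length before protein-coding genes, NF-kB was found in 3.454%, AP-1 in 6.174%, ISRE in 7.552%, GAS in 7.699%, C/EBP in 9.339% and PU.1 in 10.312%. A match is a description of the letters and not a bound site.

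Libraries held 5152838 to 42231258 counts (median 19960409). Levels are given as CPM, counts scaled to library sizes normalized with the TMM method. Of the 53700 genes, 16696 reached at least 1 CPM in more than 2 mice and were tested, among them 8 of the 9 complement genes. Cfb did not pass this filter. Contrasts of group means were tested by the quasi-likelihood test of edgeR, and a gene was called with an adjusted p (Benjamini-Hochberg over all tested genes) under 0.05. In P9-ELS replicates 5 and 6 and CTR-PBS replicate 1 (the 3 mice with few genes below), under 85% of the group's median number of genes was detected. Summed microglia markers were between 34530 and 80230 CPM, those of neutrophils at most 9.16 CPM and those of lymphocytes at most 0.723 CPM. The monocyte list reached at most 10.96 CPM, with a median of 0 for its defining gene Ly6c2 in every group. In these bulk libraries, fewer cells of a type and less RNA per cell cannot be told apart.

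Per length, the complement genes of sorted microglia fell into a very abundant set and a much lower, graded set. The mean over all mice was 2225 CPM per kb of exon for C1qa, 1904 for C1qc and 1131 for C1qb, which ranked 9, 12 and 32 of 16588 tested genes with a known length. C5ar1 followed with 336 CPM per kb (rank 89) and C3ar1 with 169.9 (rank 173). Properdin was at 1.52 CPM per kb (rank 9113, near the middle), C3 at 0.341 (rank 13102) and C4b at 0.169 (rank 14380). Cfb, which was not tested, was at 0.0669 and would rank 15701. For C4b and Cfb the whole exon length was used despite the stretches shared with other genes, so their places are uncertain. The exons of C1qb cover 6246 bases, but its canonical transcript has only 2532 (C1qa 1610 and 1087, C1qc 2860 and 1852). How far C1qb lies below the other subunits per kb therefore depends on the length used. In P9-CTR, C1qb was above C3ar1, C3ar1 above C5ar1, C5ar1 above Cfp, and Cfp above C3 in 12 of 12 mice with no overlap between the ranges. C1qa and C1qc were not separated by their spread in any group, and with the length of the longest transcript in place of the exon union C1qc (2725 CPM per kb) stood above C1qa (2609). The order of the receptors differed between the ages. C3ar1 was above C5ar1 at P9 in 12 of 12 CTR and 13 of 13 ELS mice, C5ar1 was above C3ar1 in 7 of 7 CTR-PBS and 6 of 6 ELS-PBS mice with overlapping ranges, and after LPS C5ar1 was higher without overlap.

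**Figure D1:**
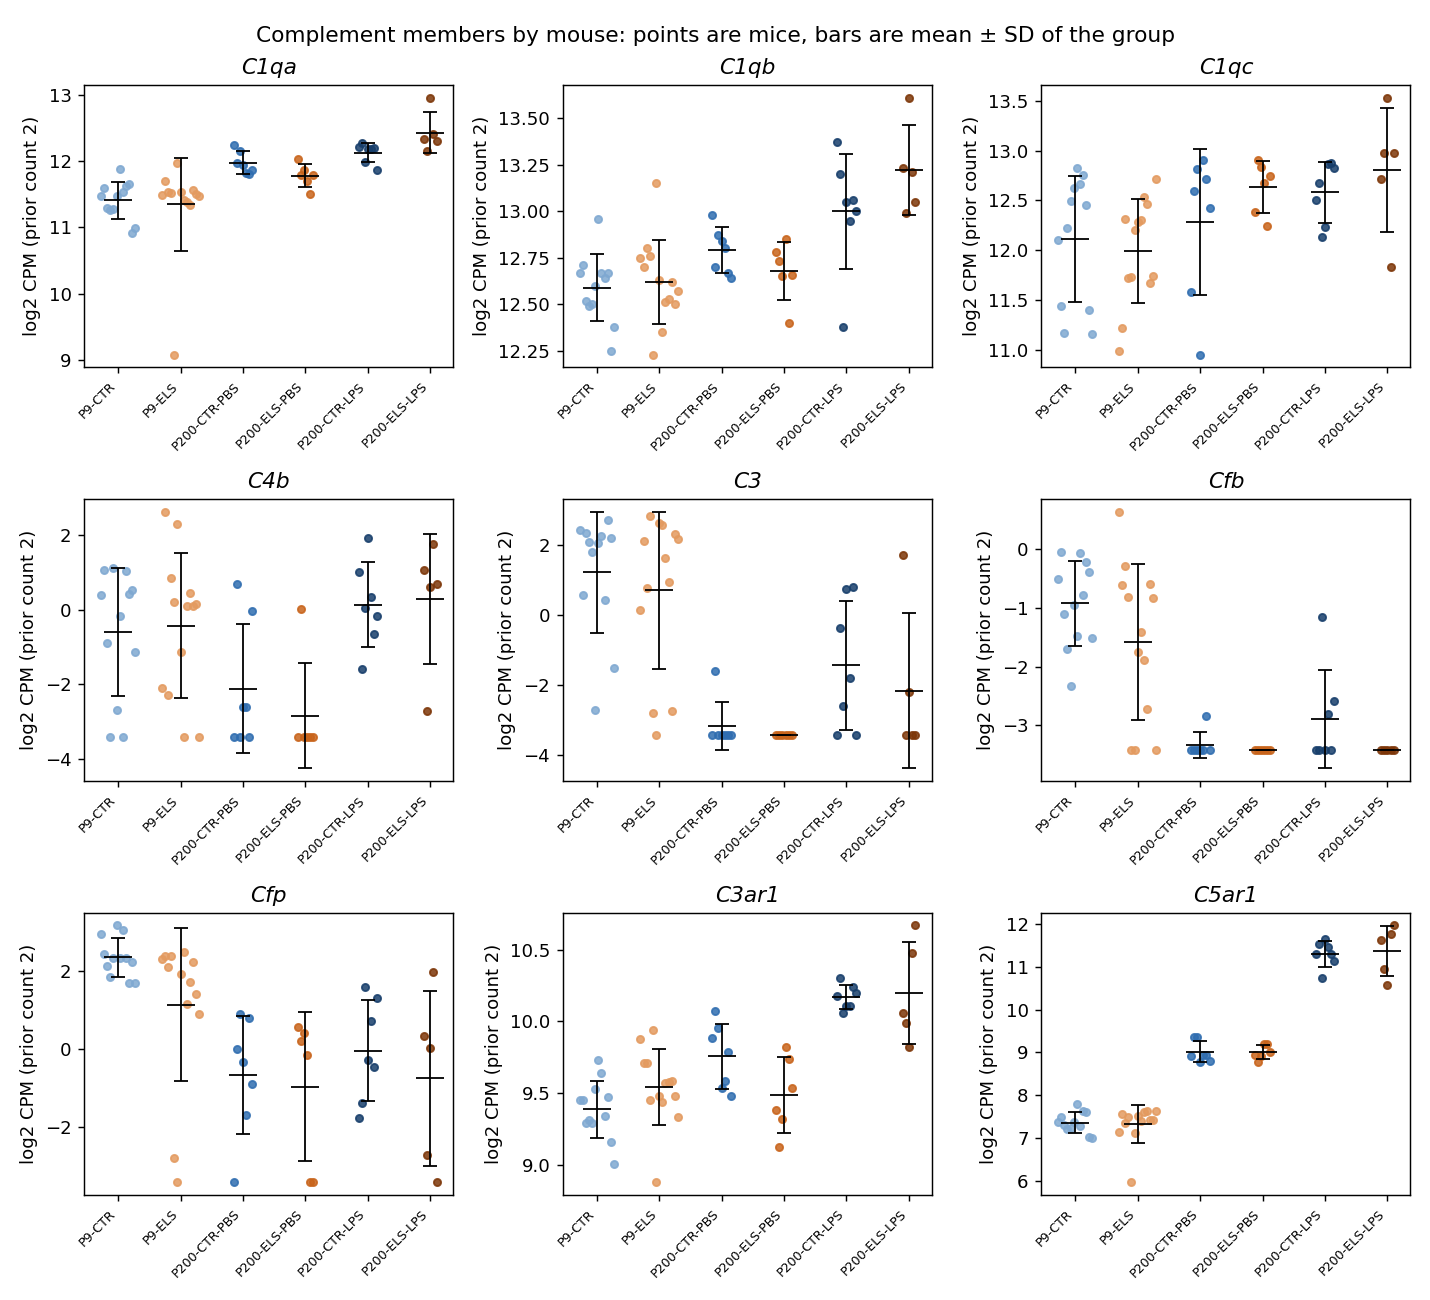
Levels of the 9 complement genes, 1 panel per gene, with the 6 groups on the horizontal axis and log2 CPM (prior count 2) on the vertical axis. Each point is 1 mouse and the bars give the mean and SD of the group. C5ar1 steps up from P9 to P200 and again after LPS without overlap, whereas C3 and Cfb sit near the lower limit in most P200 mice.

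The C1q subunits, which assemble into 1 hexameric recognition protein, were high in each group. C1qa was between 1943 and 3766 CPM in P9-CTR (median 2845) and between 540.8 and 4043 in P9-ELS (median 2918), where the lowest value was that of replicate 5. It was between 3591 and 4865 CPM in CTR-PBS (median 3920), 2925 and 4211 in ELS-PBS (median 3531), and 3742 and 4941 in CTR-LPS (median 4682). The 5 ELS-LPS mice had 5159, 4566, 7950, 5439 and 5036 CPM (replicates 1 to 5). All of these lay above every ELS-PBS mouse, and replicate 3 stood above the rest.

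C1qb was between 4878 and 7994 CPM in P9-CTR (median 6289), 4805 and 9075 in P9-ELS (median 6316), 6385 and 8083 in CTR-PBS (median 7153) and 5413 and 7405 in ELS-PBS (median 6621). After LPS it was between 5315 and 10570 CPM in CTR (median 8494), with replicate 3 lowest, and the ELS-LPS mice had 9606, 8132, 12510, 9494 and 8510 CPM in the same order of mice. ELS-LPS and ELS-PBS did not overlap. C1qc spread far more. It was between 2290 and 7209 CPM in P9-CTR (median 5190), 2040 and 6704 in P9-ELS (median 4710), 1971 and 7641 in CTR-PBS (median 6175), 4830 and 7651 in ELS-PBS (median 6687), and 4488 and 7510 in CTR-LPS (median 6512). The ELS-LPS mice had 6703, 8089, 11830, 3630 and 8004 CPM, so that 1 of them lay below every ELS-PBS mouse.

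The C1q genes, although adjacent, did not vary as 1 unit. The SD of log2 CPM within groups was 0.21 for C1qb, 0.41 for C1qa and 0.55 for C1qc, and without the 3 mice with few genes it was 0.19, 0.20 and 0.56. Over 50 mice, deviations of C1qa and C1qb from their group means were correlated (Pearson r = 0.63, adjusted p = 0.00018, Spearman rho = 0.74, adjusted p = 0.00036, two-sided permutation test within groups, 36 gene pairs, smallest possible p 1e-05). When the 2 mice with the most extreme C1qa were left out r was 0.69, within nests it was 0.81, and without the 3 mice with few genes 0.73. C1qc had an r of 0.19 with C1qa (adjusted p = 0.4929 by permutation) and of 0.18 with C1qb. The genes most like each subunit, over 8272 genes and as a description without a test, were also different. They were Coro1b (r = 0.95, but 0.74 and rank 30 without the 3 mice) for C1qa, Tmed3 (0.78, and 0.80 and rank 9 without them, where Ctsz was first with 0.90) for C1qb, and the kinase gene Camk1 (0.95, and 0.96 without the 3 mice) for C1qc. For the mean of the subunits, the most like gene was Spi1 (r = 0.86), which encodes the myeloid factor PU.1, followed by Mcrip1 and Tsen34 (both 0.84). Spi1 was second for C1qc alone (r = 0.90) and was not among the first 3 genes for C1qa or C1qb.

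**Figure D2:**
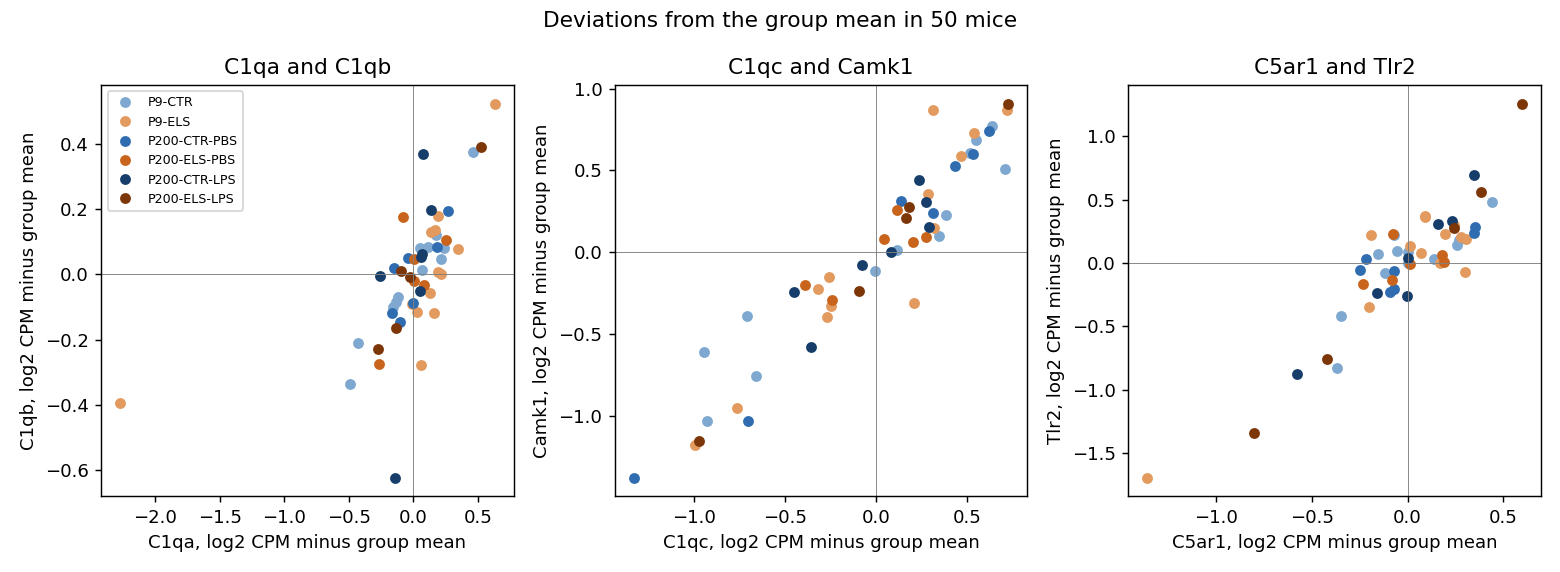
Deviation of log2 CPM from the group mean for C1qa against C1qb, C1qc against Camk1, and C5ar1 against Tlr2, with 1 point for each of 50 mice. The points of C1qc and Camk1 (r = 0.95) and of C5ar1 and Tlr2 (r = 0.90) lie close to a line, and those of C1qa and C1qb (r = 0.63) scatter more, with P9-ELS replicate 5 far from the rest.

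Count ratios within a mouse, which do not depend on the library size, showed the same. The ratio of C1qc to C1qb was between 0.394 and 1.08 in P9-CTR, 0.296 and 1.105 in P9-ELS, 0.270 and 1.068 in CTR-PBS, 0.759 and 1.14 in ELS-PBS, 0.550 and 0.943 in CTR-LPS and 0.382 and 0.995 in ELS-LPS. It spanned 4.23-fold over all mice. The ratio of C1qa to C1qb spanned 6.80-fold over all mice because of the low value of P9-ELS replicate 5, and 1.18-fold to 1.71-fold within each of the other 5 groups. It differed between the ages. Its mean was 0.444 ± 0.035 (SD, n = 12) in P9-CTR and 0.572 ± 0.040 (n = 7) in CTR-PBS, with no overlap (exact permutation test, two-sided, p = 3.97e-05, adjusted p = 1.59e-04 over 4 ratio tests). In ELS it was 0.435 ± 0.103 (n = 13) at P9 and 0.540 ± 0.052 (n = 6) in ELS-PBS (exact permutation p = 0.00236, adjusted p = 0.00472), with a ratio of 0.1125 in P9-ELS replicate 5. For C1qc to C1qb, ages did not differ beyond the spread in CTR (exact permutation p = 0.876) and did in ELS (0.693 ± 0.260 at P9 and 0.977 ± 0.155 at P200, exact permutation p = 0.0232, adjusted p = 0.0309). Mice of 1 nest are not independent. With nest means as the units, C1qa to C1qb differed between the ages in CTR (5 against 5 nests, exact permutation p = 0.00794, adjusted p = 0.0317) and ELS (5 against 4 nests, exact permutation p = 0.0159, adjusted p = 0.0317), and C1qc to C1qb no longer passed in ELS (exact permutation p = 0.0635, adjusted p = 0.0847). These ratios were chosen after the levels had been seen.

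**Figure D3:**
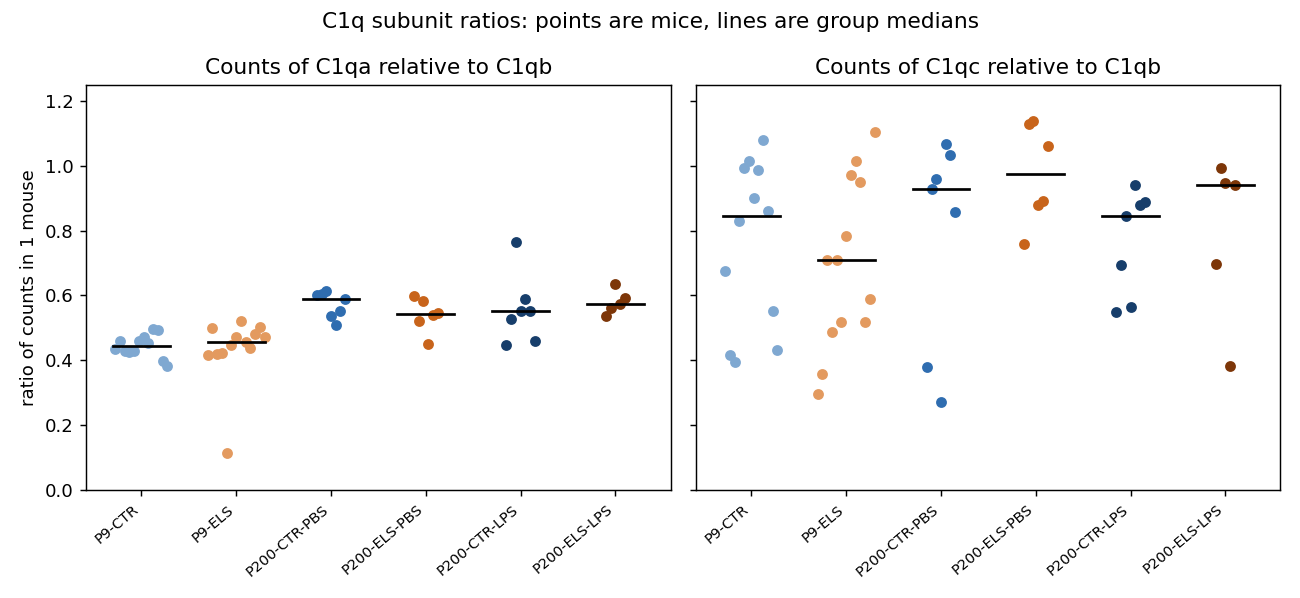
Ratio of the counts of C1qa to C1qb and of C1qc to C1qb in each mouse, by group, with the group median as a line. C1qa to C1qb lies lower in P9-CTR (median 0.444) than in CTR-PBS (median 0.588), and C1qc to C1qb is widely spread within most groups.

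Age was compared between P9 and the PBS groups of P200, separately in CTR and ELS. In CTR, 5 of the 8 tested complement genes were called, 3 of them higher and 2 lower at P200, against a background of 44.1% of all tested genes (2911 higher and 4445 lower). In ELS 5 were called, 2 higher and 3 lower, against 42.2% (2863 higher and 4182 lower). The median log2 fold change of the 8 genes was 0.19 in CTR and -0.01 in ELS, and that of all tested genes was -0.09 and -0.01. The microglia markers moved with age as well, with 5 of 7 called higher and 1 lower in both conditions, and summed markers of border-associated macrophages were between 474.9 and 919.1 CPM at P9 and between 1.864 and 11.41 CPM at P200, mostly from Mrc1. Their 6 genes were lower at P200 in CTR for 6 of 6 and in ELS for 5 of 6. Summed neuron markers were between 29.8 and 124 CPM at P9 and between 2.49 and 12.96 CPM at P200, and 5 of 6 astrocyte markers were lower. The sum of the astrocyte list, mostly from Slc1a3 at P200, was instead between 115.2 and 334.5 CPM at P9 and between 301.3 and 502.8 CPM after PBS at P200. The summed genes of the dissociation response (immediate-early and heat-shock genes) were between 38.8 and 314.5 CPM at P9 and between 306.6 and 600.8 CPM after PBS at P200. The part of other cell types and of dissociation in the age differences was not tested.

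C5ar1, the receptor of the inflammatory fragment C5a, had the clearest age difference. It was between 127.5 and 223.6 CPM in P9-CTR (median 161.4), 62.5 and 198.5 in P9-ELS (median 171.2, lowest in replicate 5), 435.8 and 660.9 in CTR-PBS (median 491.9) and 438.1 and 587.5 in ELS-PBS (median 503.1). Each P200 mouse was above each P9 mouse. The log2 fold change was 1.65 in CTR (standard error, SE, 0.15, adjusted p = 4.52e-13), which is a 3.15-fold higher level (95% confidence interval, CI, 2.55 to 3.88). It was 1.64 in ELS (SE 0.15, adjusted p = 1.12e-12).

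C3ar1, the receptor of C3a, was between 514 and 848 CPM in P9-CTR (median 673.5) and between 715 and 1071 in CTR-PBS (median 885), with overlapping ranges. The log2 fold change was 0.37 (SE 0.11, adjusted p = 0.00638), and the call was missed when counts were summed per nest (adjusted p = 0.0501). In ELS the ranges were 471 to 983 CPM at P9 (median 760) and 557 to 904 at P200 (median 704), with a log2 fold change of -0.06 (adjusted p = 0.737). The difference between these changes was -0.43 (95% CI -0.76 to -0.10, unadjusted p = 0.0126, adjusted p = 0.356), and was not called.

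Of the C1q subunits, C1qa rose with age in CTR (log2 fold change 0.55, SE 0.16, adjusted p = 0.0050). The ELS mice had a log2 fold change of 0.34 (adjusted p = 0.102), and C1qa was called in them at 0.29 without the 3 mice with few genes (adjusted p = 0.0151) and at 0.46 with counts summed per nest (adjusted p = 0.0252). C1qb had a log2 fold change of 0.19 (adjusted p = 0.125) for the CTR mice and 0.04 (adjusted p = 0.768) for the ELS mice. In CTR, it was called with the filterByExpr filter (adjusted p = 0.0292) and in a fit of the compared groups alone (adjusted p = 0.0453). C1qc had 0.19 in CTR (adjusted p = 0.546) and 0.58 in ELS (SE 0.24, adjusted p = 0.0483). The ELS call was lost in 10 of 19 fits that left out 1 mouse (P9-ELS replicates 1, 2, 4, 5, 11 and 12 and ELS-PBS replicates 2, 3, 4 and 6), where the adjusted p reached 0.105, and also with DESeq2 (adjusted p = 0.0542), without a filter (0.0638), with counts summed per nest (0.101) and without the 3 mice with few genes (0.056).

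The central component C3 was found mainly at P9 in these cells. It was between 0.06 and 6.535 CPM in P9-CTR (median 4.11) and between 0 and 7.00 in P9-ELS (median 2.98). In CTR-PBS 6 of 7 mice had a count of 0, and replicate 2 had 6 counts (0.238 CPM). All 6 ELS-PBS mice had a count of 0. C3 fell with age in CTR (log2 fold change -6.27, SE 1.29, adjusted p = 9.83e-05). Without CTR-PBS replicate 2 the fitted value was -9.18 (adjusted p = 5.86e-05), which depends on the prior count. In ELS the fitted value (-9.06, adjusted p = 2.92e-05) depends on the prior count, and against the floor of 3 counts over the group C3 was at least 168-fold lower. The spread of C3 at P9 was wide, with an SD of log2 CPM of 1.73 in P9-CTR and 2.25 in P9-ELS.

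C4b, which is cleaved after C1q binds, was between 0 and 2.055 CPM in P9-CTR (median 1.006) and 0 and 6.07 in P9-ELS (median 0.975, highest in replicate 2). In CTR-PBS it was at 0 in 3 of 7 mice and at most 1.509 CPM, and in ELS-PBS it was at 0 in 5 of 6 mice, with 26 counts (0.925 CPM) in replicate 2. In CTR the log2 fold change of -1.35 was not called (adjusted p = 0.307). In ELS C4b fell by 3.09 on the log2 scale (SE 1.23, adjusted p = 0.0373). The ELS call was lost without P9-ELS replicate 2 (-2.60, adjusted p = 0.0766) or 6 (adjusted p = 0.0564) and without ELS-PBS replicate 1, 3, 4, 5 or 6 (adjusted p between 0.0755 and 0.0764), in a fit of the compared groups alone (adjusted p = 0.0806) and with counts summed per nest (adjusted p = 0.0517). Without ELS-PBS replicate 2 it was -7.91.

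Both genes of the alternative pathway were also found mainly at P9. Properdin (Cfp) was between 3.15 and 9.00 CPM in P9-CTR (median 4.97) and between 0 and 1.789 in CTR-PBS (median 0.709), without overlap. In ELS the ranges were 0 to 5.60 CPM at P9 (median 3.73, at 0 in replicate 6) and 0 to 1.381 at P200 (median 0.935). Cfp fell with age by 2.69 on the log2 scale in CTR (SE 0.76, adjusted p = 0.00324) and by 2.14 in ELS (SE 0.78, adjusted p = 0.0232). The ELS call was lost without ELS-PBS replicate 5 (adjusted p = 0.0539) or 6 (adjusted p = 0.0541), in a fit of the compared groups alone (adjusted p = 0.0537) and with counts summed per nest (adjusted p = 0.108).

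Factor B was found at 3 to 27 counts in each P9-CTR mouse (0.106 to 0.871 CPM, median 0.458) and at 0 to 1.47 CPM in P9-ELS (median 0.281, 3 mice at 0). At P200 1 of 7 CTR-PBS mice had 1 count, and the ELS-PBS and ELS-LPS mice had none. Not tested after the filter on low counts, it was called lower with age when no filter was applied (CTR -5.30, adjusted p = 5.07e-04). In ELS it was at least 19.5-fold lower against the floor of 3 counts over the group. Cfb and Cfp deviated together over 50 mice (r = 0.51, adjusted p = 0.00018, rho = 0.51, adjusted p = 0.0009, permutation within groups). The ELS-PBS and ELS-LPS mice, all at a Cfb count of 0, added no Cfb deviation to this. When the 2 mice with the most extreme Cfb were left out r was 0.44, within nests it was 0.61, and without the 3 mice with few genes 0.31. These 2 pairs, C1qa with C1qb and Cfb with Cfp, were the only ones of 36 that passed for both r and rho.

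LPS was compared with PBS at P200. As a check of the injection, 4 of 5 response genes (Il1b, Tnf, Nfkbia, Il6 and Ccl2) were called higher in both conditions, and their sum was between 117.1 and 245.1 CPM after PBS and between 1923 and 4832 CPM after LPS. In CTR 3 of the 8 complement genes were higher and 0 lower, against a background of 8.73% higher and 6.20% lower. In ELS 5 were higher and 0 lower, against 7.40% and 4.94%. The median log2 fold change of the 8 genes was 0.49 in CTR and 0.71 in ELS, and that of all tested genes was 0.00 and -0.04. Of the 7 microglia markers 2 were lower after LPS in both conditions. The dissociation response genes, many of which LPS also induces, summed to 3636 to 9160 CPM after LPS. Of 6 astrocyte markers 1 was higher in CTR (Slc1a3) and 2 in ELS (Gfap and Gja1), with sums, mostly from Slc1a3, of 301.3 to 502.8 CPM in CTR-PBS, 314.7 to 454.7 in ELS-PBS, 485.0 to 617.2 in CTR-LPS and 422.3 to 585.0 in ELS-LPS. The part of either list in the results was not tested.

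C5ar1 rose in both conditions. It was between 1700 and 3234 CPM in CTR-LPS (median 2543), and the ELS-LPS mice had 3145, 1988, 1524, 3465 and 4020 CPM (replicates 1 to 5). Every LPS mouse was above every PBS mouse of its condition. The log2 fold change was 2.30 in CTR (SE 0.18, adjusted p = 1.41e-14) and 2.45 in ELS (SE 0.20, adjusted p = 6.81e-14), or 4.93-fold (95% CI 3.83 to 6.35) and 5.47-fold (4.13 to 7.25). The genes whose deviations were most like those of C5ar1 were Tlr2 (r = 0.90, and 0.85 without the 3 mice with few genes), a receptor of bacterial lipoproteins, the glucose transporter gene Slc2a1 (0.85) and the adhesion gene Icam1 (0.83).

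C3ar1 was between 1070 and 1264 CPM in CTR-LPS (median 1157), and the ELS-LPS mice had 1070, 1015, 903, 1427 and 1632 CPM in the same order. In both conditions the ranges after LPS and PBS overlapped only at their ends (lowest LPS mouse 1070 CPM against the highest PBS mouse with 1071 in CTR, and 903 against 904 CPM in ELS). C3ar1 rose by 0.40 on the log2 scale in CTR (SE 0.13, adjusted p = 0.0242) and by 0.73 in ELS (SE 0.14, adjusted p = 1.89e-04). The CTR call was lost without CTR-LPS replicate 2 (adjusted p = 0.0506) and without CTR-PBS replicate 4 (0.0571), 5 (0.0527) or 7 (0.0627). The deviations of both receptors had an r of 0.33 (adjusted p = 0.290) and a rho of 0.52 (adjusted p = 0.00696, permutation within groups), with an r of 0.26 without the 2 farthest mice, -0.50 within nests and 0.64 without the 3 mice with few genes. The genes most like C3ar1 were Rab1a (r = 0.77), Asah1 (0.72) and Vps26a (0.71), which ranked 3, 8 and 19 without the 3 mice with few genes.

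**Figure D4:**
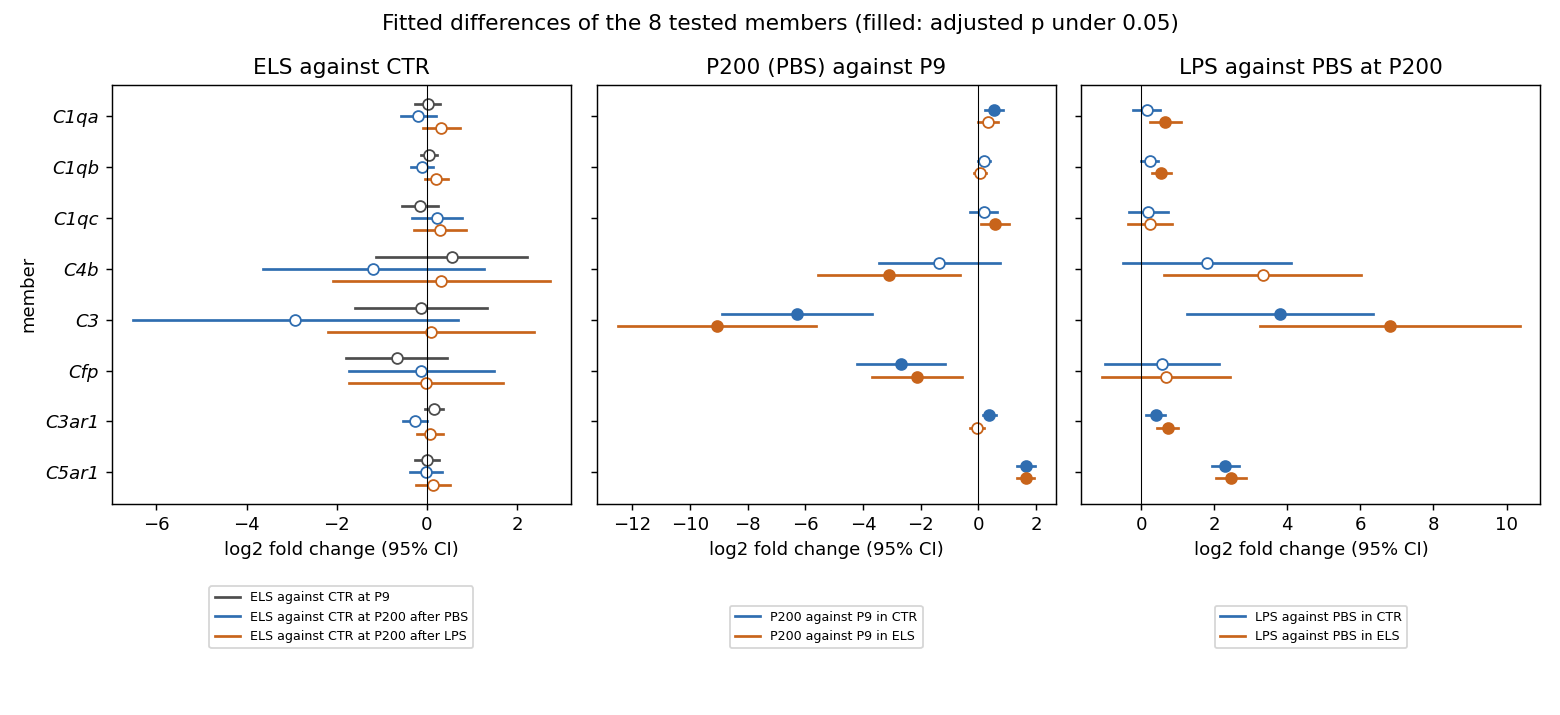
Log2 fold change with its 95% confidence interval for the 8 tested complement genes, in 3 panels for ELS against CTR, P200 against P9, and LPS against PBS. Filled points have an adjusted p under 0.05. C5ar1 is filled to the right in both age and both LPS comparisons, and no point is filled for ELS.

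C1qa and C1qb rose after LPS in ELS, by 0.67 (SE 0.21, adjusted p = 0.0246) and 0.55 (SE 0.13, adjusted p = 0.00198) on the log2 scale. The call of C1qa was lost without ELS-LPS replicate 3 (0.51, adjusted p = 0.123), without ELS-PBS replicate 5 (0.62, adjusted p = 0.0602) and with the nest as a block (0.62, adjusted p = 0.0576), and that of C1qb was kept in each of the 11 fits that left out 1 mouse. In CTR the log2 fold change was 0.15 for C1qa (adjusted p = 0.673) and 0.24 for C1qb (unadjusted p = 0.0457, adjusted p = 0.177), and C1qb was called without CTR-LPS replicate 3 (0.32, adjusted p = 0.0383). The difference between ELS and CTR in the response was 0.52 for C1qa (95% CI -0.04 to 1.07, adjusted p = 0.881) and 0.32 for C1qb (-0.03 to 0.66, adjusted p = 0.881), and neither was called. C1qc was not called, at 0.20 in CTR (adjusted p = 0.714) and, for the ELS mice, 0.25 (adjusted p = 0.663).

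C3 was at 0 CPM in 2 of 7 CTR-LPS mice and at 0.0715, 0.195, 0.680, 1.574 and 1.664 CPM in the others. Among the ELS-LPS mice, 3 of 5 had a count of 0, replicate 3 had 2 counts (0.124 CPM) and replicate 1 had 43 (3.17 CPM). In CTR C3 rose by 3.81 (SE 1.26, adjusted p = 0.0324). This call was lost without 8 of 14 mice (CTR-PBS replicates 1, 3, 4, 5, 6 and 7 and CTR-LPS replicates 4 and 6), with an adjusted p between 0.0553 and 0.0781, in a fit of the compared groups alone (0.0799), with voom and the nest as a random effect (0.165) and with the nest as a block (0.213). Without CTR-PBS replicate 2, the only PBS mouse with counts, the fitted value was 6.72 (adjusted p = 0.00751). In ELS the fitted value of 6.81 (adjusted p = 0.00586) rested on replicate 1. Without it the value was 2.66 (adjusted p = 0.419), and with voom and the nest as a random effect 2.30 (adjusted p = 0.437). With the nest as a block it was 6.10 (adjusted p = 0.130). Against the floor of 3 counts over the ELS-PBS group, C3 was at least 28.0-fold higher in ELS-LPS with replicate 1, and 2 counts remained without it. In this replicate summed neutrophil markers were at 0.147 CPM, and the astrocyte gene Gfap was at 4.055 CPM, the highest of the ELS-LPS mice, which ranged from 0 (ELS-PBS 0 to 0.362 CPM). The whole astrocyte list summed to 520.5 CPM in this replicate, below the ELS-LPS median of 532.5 CPM (422.3 to 585.0). The part of astrocyte RNA in C3 was not tested.

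C4b was between 0.236 and 3.711 CPM in CTR-LPS (median 0.929), and the ELS-LPS mice had 1.99, 0.0585, 1.421, 3.292 and 1.516 CPM. Compared with PBS the values were 1.82 in CTR (adjusted p = 0.331) and 3.33 in ELS (SE 1.35, adjusted p = 0.1001), neither of which was called. In ELS this depended on 1 PBS mouse. Without ELS-PBS replicate 2, the only one with counts, the value was 8.15 (adjusted p = 0.00219), and with voom and the nest as a random effect it was 4.68 (adjusted p = 0.0249). With the nest as a block it was 6.42 (adjusted p = 0.0338). The most like gene was Ppp1r10 (r = 0.60), and for C3 it was Hipk2 (r = 0.67).

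For Cfp the ranges after LPS were 0.2 to 2.93 CPM in CTR (median 0.731), and the ELS-LPS mice had 1.18, 0.0585, 0.927, 3.895 and 0 CPM, which overlapped those after PBS. In CTR the log2 fold change of 0.58 had an adjusted p of 0.711, and in ELS that of 0.69 had an adjusted p of 0.688. The genes most like Cfp were Mbp and Ddx23 (both r = 0.71), with an r of 0.50 and 0.41 without the 3 mice with few genes, and Magee1 (0.69 and 0.30). Cfb had counts in 3 of 7 CTR-LPS mice, at most 5 in replicate 3 (0.357 CPM), and without a filter its log2 fold change was 2.46 (adjusted p = 0.214).

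ELS was compared with CTR at P9, at P200 after PBS and at P200 after LPS. None of the 8 complement genes was called in any of them by edgeR's quasi-likelihood test, by its likelihood-ratio test or by DESeq2, and 0 had an unadjusted p under 0.05. The background was 0% higher and 0% lower at P9 (914 of 16696 genes with an unadjusted p under 0.05), 0.126% higher and 0.0419% lower after PBS (1622 genes) and 0% and 0% after LPS (796 genes). The median log2 fold change of the 8 genes was 0.01, -0.16 and 0.17, and that of all tested genes 0.00, 0.01 and -0.01. For the abundant genes the intervals were narrow at P9. They ran from -0.26 to 0.29 for C1qa, from -0.13 to 0.21 for C1qb, from -0.03 to 0.35 for C3ar1 and from -0.26 to 0.26 for C5ar1 on the log2 scale. For C1qc it ran from -0.55 to 0.25.

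After PBS the value nearest to the threshold was that of C3ar1, with -0.27 (95% CI -0.53 to 0.00, unadjusted p = 0.0527, adjusted p = 0.523) and overlapping ranges. C1qa had -0.19 (95% CI -0.58 to 0.19), C1qb -0.105 (-0.35 to 0.14), C1qc 0.23 (-0.32 to 0.79) and C5ar1 -0.02 (-0.38 to 0.34). After LPS C1qa had 0.32 (95% CI -0.08 to 0.72), C1qb 0.21 (-0.04 to 0.46), C1qc 0.29 (-0.29 to 0.87), C3ar1 0.07 (-0.22 to 0.35) and C5ar1 0.13 (-0.25 to 0.51). For C3, C4b and Cfp the intervals spanned more than 1 log2 unit to either side at P9 or at P200, and differences of that size were not detectable at these counts. The interaction of ELS and LPS was called for 0 of the 8 genes (background 0% higher and 0% lower, 980 genes with an unadjusted p under 0.05), with 0.33 for C3ar1 (95% CI -0.06 to 0.72) and 0.15 for C5ar1 (-0.38 to 0.68). The interaction of ELS and age was also called for 0 of the 8 genes (background 0.0299% higher and 0% lower, 1712 genes with an unadjusted p under 0.05), and the lowest unadjusted p was that of C3ar1 given above. The nest is nested in the condition, so that part of any difference between conditions cannot be told apart from differences between nests.

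Of 51 further complement genes, 25 were tested. The cells held the receptor partner Itgb2 and the decoy-like C5a receptor C5ar2, but few of the proteases and terminal components were tested. Tested were 1 of 4 classical proteases (C1ra), 3 of 8 genes of the lectin arm, 1 of 7 terminal components, 5 of 8 soluble regulators, 5 of 8 membrane regulators, 5 of 6 other receptors, 4 of 4 C1q-binding proteins and 0 of 3 pentraxins. With age, 4 of the 25 were higher and 10 lower in CTR, and 3 were higher and 11 lower in ELS. These 14 of 25 compare with the background of 44.1% in CTR and 42.2% in ELS given above. The log2 fold changes had medians of -0.94 and -0.44.

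Among them C5ar2, at a median of 30.4 CPM in P9-CTR and 41.0 in P9-ELS, rose with age by 1.496 in CTR (SE 0.14) and 1.395 in ELS (SE 0.14) on the log2 scale, to 96.8 CPM in CTR-PBS and 104.4 in ELS-PBS. It rose further after LPS in CTR (0.80, SE 0.16, adjusted p = 2.40e-04), to 161.8 CPM. The ELS value of 0.42 (adjusted p = 0.133) was not called, and neither was the interaction of ELS and LPS (adjusted p = 0.913). Itgb2, the beta chain of complement receptor 3, rose with age by 0.98 in CTR and 1.07 in ELS. The lectin pathway protease gene Masp1 rose by 1.46 and 1.78. Fcna, also of the lectin arm, went the other way, with fitted values of -10.67 in CTR and -10.51 in ELS, and Masp2 was not called. The chaperone and terminal pathway inhibitor clusterin (Clu) fell by 5.02 in CTR and by 3.57 in ELS. Its medians went from 28.15 and 16.92 CPM to 0.389 and 1.725 CPM. Fcna, Serping1 (-6.68), Vtn (-6.72) and Cd93 (-6.34) had larger fitted falls than Clu in CTR, at a mean log2 CPM under 1. C1qbp, a mitochondrial protein that binds C1q, fell by 1.84 and 0.96. Lrp1 fell by 0.94 in CTR, and its ELS value of -0.50 was not called (adjusted p = 0.085). Calreticulin (Calr) fell by 0.32 in ELS, and its CTR value of -0.07 was not called. After LPS, 1 of the 25 was higher (C5ar2) and 2 lower (Susd4 and Cr2) in CTR, against the background of 8.73% higher and 6.20% lower, and 0 were called in ELS, against 7.40% and 4.94%.

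None of the 25 was called for ELS or for an interaction by the quasi-likelihood test. The nearest, chosen after its values were seen, was C1qbp after PBS, between 4.676 and 30.48 CPM in CTR (median 11.94) and between 14.75 and 47.0 in ELS (median 37.15). Its log2 fold change was 1.298 (SE 0.34, adjusted p = 0.0767), and it was called with edgeR's likelihood-ratio test (adjusted p = 0.0204) and with DESeq2 (adjusted p = 0.0225).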

How the data were processed

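Per the labels and methods, the authors used cutadapt 2.10 for trimming, STAR for mapping to GRCm39 and HTSeq 0.11.0 to count unique exonic reads per gene. The deposited values are these raw counts, 1 library per mouse. The annotation release and the strand setting are not given in the sources used here. Total counts were between 5152838 and 42231258 per mouse, which limits the precision of genes with few counts. After TMM normalization, edgeR 4.0.16 in R 4.3.3 fitted 1 mean per group over the 50 mice (quasi-likelihood test). Kept were the 16696 genes that reached 1 CPM in more than 2 mice, and log2 CPM used a prior count of 2. Intervals and floors of 3 counts cover counting error or the fitted spread only, and replicates are separate mice.

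The members and gene lists were chosen with earlier results of these data known. Named were all members, the 3 largest called changes in each direction among the further complement genes with a mean log2 CPM of at least 1 in the age and LPS comparisons and every called one for ELS, and the 3 genes with the highest r to a member among those with a mean log2 CPM of at least 3. Fcna, Masp2, Serping1, Vtn and Cd93 were named outside the rule for the further complement genes, beside Masp1 and Clu. Likeness for each C1q subunit alone and the ratio tests, over mice and over nest means, were added after seeing the data. Positions, lengths and sequences came from GRCm39 with GENCODE vM39. Alternatives were edgeR's likelihood-ratio test, DESeq2 1.42.0, its size factors, other filters, fits of only the groups compared, sums of counts over each nest, voom in limma 3.58.1 with the nest as a random effect, a nest block, a log2 fold change above 1, and leaving out mice. The test was checked on simulated data. Correlations used Python 3.11.15 and scipy 1.17.1. Values of some listed genes are not reported here.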

Additional observations from a re-analysis of the deposited data

Results flagged for a closer look

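In 7 of 33 P200 groups of a complement gene, 1 mouse stood apart from the rest of its group by Dixon's ratio of gap to range. The P9 groups were not screened in this way. The low C1qa of P9-ELS replicate 5 (540.8 CPM, group median 2918) is therefore not among the 7. In 3 of these each other mouse was at 0, so that any count gives the largest possible ratio, and the chance rate of about 1 in 20, which holds for continuous values, does not apply to genes near 0. C1qb was lowest in CTR-LPS replicate 3 with 5315 CPM, where the others had 7896 to 10570 (ratio 0.576). The remaining 6 concern genes near a count of 0. C3 was at 0.238 CPM (6 counts) in CTR-PBS replicate 2, with the others at 0, and at 3.17 CPM (43 counts) in ELS-LPS replicate 1, with the others at 0 to 0.124. C4b was at 0.925 CPM (26 counts) in ELS-PBS replicate 2, with the others at 0, and at 0.0585 CPM (1 count) in ELS-LPS replicate 2, with the others at 1.421 to 3.292. Cfb was at 0.0458 CPM (1 count) in CTR-PBS replicate 6, with the others at 0, and at 0.357 CPM (5 counts) in CTR-LPS replicate 3, with the others at 0 to 0.0728. The cause was not tested.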

How the results depend on the processing

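Of 792 values of a single complement gene under alternatives, 758 kept their direction and their side of the threshold, 26 lost the call, 8 gained one and 0 reversed. Most of the 758 were not called in the main fit either, so this total says little about how stable the calls were. The fits that left out 1 mouse were not counted 1 by 1 in it, and they are given below. Of the 8 tested genes, 5 were called for age in CTR, 5 for age in ELS, 3 for LPS in CTR and 5 for LPS in ELS. With a log2 fold change above 1 also required, the counts were 3 for age in CTR and 2 for LPS in ELS. For age in ELS, 3 were called in a fit of the compared groups alone and 3 with counts summed per nest. Leaving out 1 mouse at a time gave 5 to 5 for age in CTR, 2 to 5 for age in ELS, 1 to 4 for LPS in CTR, 4 to 6 for LPS in ELS, and 0 to 0 for ELS at P9, after PBS, after LPS and for both interactions. The low count of 2 for age in ELS was that without ELS-PBS replicate 6 (3 without P9-ELS replicate 2 or ELS-PBS replicate 3, 4 or 5), and the count of 1 for LPS in CTR that without CTR-PBS replicate 4, 5 or 7. At P200 the correlation between PBS and LPS mice of a nest was above 0.1 in 0 of 10 nests (-0.04 to 0.08). Of these nests, 4 were highest with their own number. This is a description without a test, and the nest correlation in the voom fit was 0.0778. With the nest as a replicate block, 2 genes were called for LPS in CTR, 4 in ELS and 0 for the interaction. C3 was lost in CTR (adjusted p = 0.213) and in ELS (0.130), C1qa was lost in ELS (0.0576) and C4b was gained in ELS (0.0338). Between TMM and DESeq2 size factors, the log2 scaled library size of the mice in a group differed by a median of at most 0.02. Depth limits C3, C4b, Cfb and Cfp, whose counts are 0 in many adult mice. The counts of C4b and Cfb are also limited by the stretches they share with other genes, and how much this lowers them was not tested.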
